A study of Mus musculus with 12 samples.

Results

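Serine synthesis and the folate cycle were followed through 9 genes of a table of 53465: Phgdh, Psat1 and Psph of serine synthesis, Shmt1 and Mthfd1 of the cytosolic folate cycle, and Shmt2, Mthfd2, Mthfd1l and Aldh1l2 of the mitochondrial one. They were chosen by their known function, with earlier results of these data known, and matched by Ensembl mouse gene ID. All 9 were among the 19830 genes with enough counts to be tested. RNA came from mouse hematopoietic stem cells (HSCs) sorted from bone marrow and cultured for 2 days in Stemline II medium with SCF and Flt3, in 4 groups of 3 libraries. The groups were long-term HSCs (LT-HSCs) with nicotinamide riboside (NR) at 1 mM, LT-HSCs in control culture, short-term HSCs (ST-HSCs) with NR at 1 mM, and ST-HSCs in control culture. NR, a vitamin B3 relative that cells turn into NAD, was added again after 24 h. Both populations were lineage negative, positive for Kit, Sca1 and CD150 and negative for CD48, and were split by CD34, which LT-HSCs lack and ST-HSCs carry. The sources used here give no mouse strain, genotype or age, and leave unsaid whether the samples of a group are separate cultures or animals. A p-value here thus reflects only how much these samples vary, and that variation may be technical. These are bulk samples of cultured cells, in which fewer cells of a type and less RNA per cell cannot be told apart.

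The serine pathway branches off glycolysis: Phgdh oxidizes phosphoglycerate, Psat1 adds the amino group and Psph removes the phosphate to give serine. The Shmt enzymes then split serine into glycine and a carbon unit carried on tetrahydrofolate, Shmt2 in mitochondria and Shmt1 in the cytosol. In mitochondria Mthfd2 and Mthfd1l carry that unit on to formate, which is exported, while Aldh1l2 instead burns it to carbon dioxide and yields NADPH; in the cytosol Mthfd1 takes up formate and holds the corresponding activities in 1 protein. The carbon units feed purine and thymidylate synthesis and methylation, and in many cultured mammalian cells ATF4, the main transcription factor of the amino acid response, raises transcription of many of these genes.

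Libraries held 24.6 M to 35.5 M gene counts (median 31.7 M). The NR libraries of sample 3 stood apart by their reads outside annotated genes, at 28.5% in LT-HSCs and 26.2% in ST-HSCs, against at most 16.99% in the others, and results are given without these 2 libraries where they move. Sort markers were read first. Kit lay at 1344 to 1716 CPM (gene counts relative to TMM-scaled library size) in every library. Cd34 lay at 230 to 270 CPM in LT-HSCs and 606 to 740 CPM in ST-HSCs. The other sort markers differed in control culture, though both populations were sorted alike on them. Ly6a and Slamf1, the genes of Sca1 and CD150, were called higher in LT-HSCs than in ST-HSCs. Their log2 differences were 2.59 ± 0.25 (adjusted p = 3.45e-05, edgeR) and 1.05 ± 0.14 (adjusted p = 0.000437, edgeR). Cd48, at most 6.25 CPM in any library, was called lower (-2.60 ± 0.48, adjusted p = 0.00532, edgeR). Of these, Cd48 alone was not called in NR culture. Procr, Mecom and Hlf, genes typical of HSCs, were each called higher in LT-HSCs than in ST-HSCs in both cultures. Some sort and HSC markers moved with NR. In LT-HSCs Procr (log2 change 0.74 ± 0.23, adjusted p = 0.0637, edgeR) and Slamf1, the gene of CD150 (-0.41 ± 0.14, adjusted p = 0.0802, edgeR), missed the threshold. In ST-HSCs Slamf1 was called lower with NR (-0.65 ± 0.14, adjusted p = 0.00627, edgeR), and Procr (2.11 ± 0.26, adjusted p = 0.000169) and Hlf (0.53 ± 0.09, adjusted p = 0.00106) were called higher. Genes listed as markers of other blood cells were followed as well, though HSCs can express some of them too. The summed level of 5 megakaryocyte genes was 1783 to 2417 CPM in NR LT-HSCs and 2961 to 3384 CPM in control LT-HSCs, and 1637 to 2151 CPM in NR ST-HSCs and 2902 to 3188 CPM in control ST-HSCs. Of the 5, 3 were called lower with NR in LT-HSCs and 4 in ST-HSCs. The 5 monocyte genes summed to 327 to 427 CPM in NR LT-HSCs and 317 to 353 CPM in control LT-HSCs, and to 347 to 421 CPM in NR ST-HSCs and 268 to 284 CPM in control ST-HSCs, with 1 gene called higher in LT-HSCs and 2 in ST-HSCs. The 4 mast genes summed to 631 to 755 CPM in NR LT-HSCs and 799 to 834 CPM in control LT-HSCs, and to 609.6 to 676 CPM in NR ST-HSCs and 793 to 863 CPM in control ST-HSCs, and Gata2 was called lower in ST-HSCs (-0.36 ± 0.07, adjusted p = 0.00233, edgeR). Megakaryocyte and mast sums were thus lower with NR without overlap in both populations, and monocyte sums higher without overlap in ST-HSCs only. Gata2, at 599 to 850 CPM, made up most of the mast sum. Cpa3, Mcpt8 and Fcer1a reached at most 11.3, 9.51 and 2.33 CPM and were not called with NR. Lyz2, at 261 to 406 CPM, made up most of the monocyte sum and was called only in ST-HSCs. Cd68 (5.03 to 33.9 CPM) was called in both populations, and Csf1r, Ly6c2 and Adgre1 in neither. The mast and monocyte sums thus mainly follow 1 gene each. Of the megakaryocyte genes, Vwf was called higher in LT-HSCs than in ST-HSCs in control culture (1.15 ± 0.17, adjusted p = 0.000931, edgeR) and in NR culture (2.31 ± 0.18, adjusted p = 4.83e-06, edgeR). Itga2b was called lower in control culture (-0.45 ± 0.11, adjusted p = 0.0268, edgeR). From bulk samples these sums cannot be assigned to other blood cells rather than to the HSCs themselves. The part of these marker changes in the results below was not tested.

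The first question was what NR does to these genes in each population. All 9 were lower with NR in both. In LT-HSCs 9 of 9 were called lower, where 7.58% of all tested genes were called lower and 2.38% higher, and the median log2 change was -0.77, against 0.04 over all tested genes. In ST-HSCs 9 of 9 were called lower as well, where 11.1% of all tested genes were called lower and 5.82% higher, with a median log2 change of -1.09, against -0.03 over all tested genes. No NR library overlapped a control library of the same cell type for any of the 9 genes, a separation that 15.9% of tested genes showed in the same direction in LT-HSCs and 20.9% in ST-HSCs. The 9 genes were chosen with earlier results of these data known, so these shares describe the background and do not test the counts. A call means a Benjamini-Hochberg adjusted p under 0.05, over all 19830 genes, in the quasi-likelihood test of edgeR, and changes are given as log2 of NR over control with their standard error (SE). All genes together split into 472 higher and 1503 lower calls in LT-HSCs and 1155 higher and 2193 lower calls in ST-HSCs. With relative log expression factors in place of TMM factors the splits were 712 higher and 1192 lower, and 1662 higher and 1552 lower, while the 9 genes stayed 9 of 9 lower in both.

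**Figure D1:**
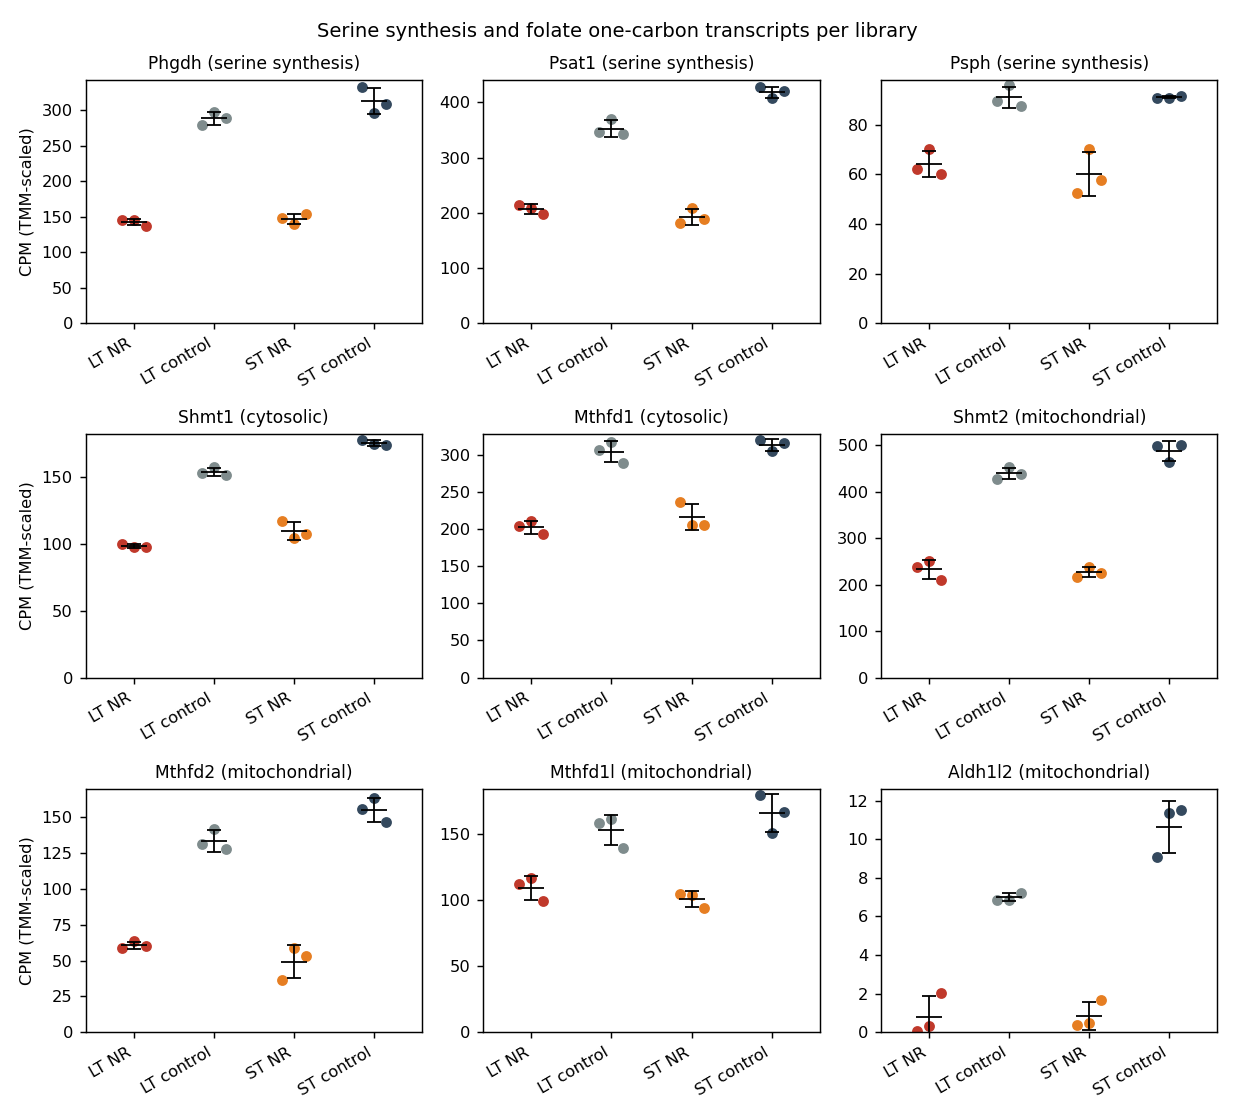
Level of each of the 9 genes in TMM-scaled CPM, 1 panel per gene with its own axis, 1 point per library and black marks for the group mean and SD (n = 3; bars end at 0), for NR and control LT-HSCs and NR and control ST-HSCs. In every panel the NR points lie below the control points of the same cell type.

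Serine synthesis begins with Phgdh (ENSMUSG00000053398, chr3:98313170-98339990, minus strand, GRCm38, protein coding), the enzyme that commits phosphoglycerate to the pathway. Its level was 145, 145 and 138 CPM in the 3 NR LT-HSC libraries, against 279.7, 297 and 289.9 CPM in control LT-HSCs. In ST-HSCs it was 149, 140.1 and 154 CPM with NR, against 334, 297 and 309 CPM in control culture. Each NR library thus held close to the same level whichever population it came from, and the groups were far from overlapping. The log2 change was -1.02 ± 0.06 (SE, adjusted p = 4.29e-06, edgeR) in LT-HSCs and -1.09 ± 0.06 (adjusted p = 7.62e-07) in ST-HSCs, which left 49.4% of the control mean in LT-HSCs and 47.1% in ST-HSCs. By p, Phgdh was gene 2 of the 19830 tested in LT-HSCs.

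Psat1 (chr19:15904678-15947337, minus strand), the aminotransferase of the second step, had 215, 209 and 197 CPM in NR LT-HSCs, against 346, 370.0 and 343 CPM in control LT-HSCs. In ST-HSCs it had 181, 209 and 188 CPM with NR, against 427, 408 and 421 CPM in control culture. The NR libraries of both populations shared 1 range, while the control libraries did not: each control ST-HSC library lay above each control LT-HSC library. Its log2 change was -0.77 ± 0.06 in LT-HSCs (adjusted p = 3.13e-05, edgeR) and -1.12 ± 0.06 in ST-HSCs (adjusted p = 7.62e-07), leaving 58.7% and 46.0% of the control mean.

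Psph (chr5:129765558-129787449, minus strand), the phosphatase of the last step, moved least of the pathway's enzymes. It had 62.1, 70.3 and 60.2 CPM in NR LT-HSCs, against 89.7, 95.9 and 87.3 CPM in control LT-HSCs, and 52.5, 70.0 and 57.8 CPM in NR ST-HSCs, against 90.7, 90.8 and 91.4 CPM in control ST-HSCs. Sample 2 was the highest NR library in both populations and still lay below every control library. The log2 change was -0.50 ± 0.10 in LT-HSCs (adjusted p = 0.00579, edgeR) and -0.60 ± 0.10 in ST-HSCs (adjusted p = 0.00106). The annotated span of Psph, introns included, shares 452 bases with that of Cct6a on the opposite strand. Whether exons overlap there was not examined. The strand setting of the counting is not given, and from the counts reads of the 2 genes there cannot be told apart.

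In the cytosolic folate cycle, Shmt1 (chr11:60788104-60811718, minus strand) had 100.1, 97.3 and 97.3 CPM in NR LT-HSCs, against 153, 157 and 152 CPM in control LT-HSCs. In NR ST-HSCs it had 117, 104 and 107 CPM, against 178, 175 and 174 CPM in control ST-HSCs. The libraries of a group were close together, and NR left 63.8% of the control mean in LT-HSCs and 62.4% in ST-HSCs. The log2 change was -0.65 ± 0.06 (adjusted p = 6.15e-05, edgeR) in LT-HSCs and -0.68 ± 0.06 (adjusted p = 9.24e-06) in ST-HSCs.

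Mthfd1 (chr12:76255298-76319803, plus strand), which charges cytosolic folate with formate and interconverts its carbon units, had 204, 211 and 193 CPM in NR LT-HSCs, against 307, 317 and 288 CPM in control LT-HSCs. In ST-HSCs it had 236, 205 and 206 CPM with NR, against 319.8, 305 and 315 CPM in control culture. NR left 66.6% of the control mean in LT-HSCs and 68.8% in ST-HSCs. Its log2 change was -0.59 ± 0.07 (adjusted p = 0.000236, edgeR) in LT-HSCs and -0.54 ± 0.07 (adjusted p = 0.000145) in ST-HSCs.

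In mitochondria, Shmt2 (chr10:127517123-127522444, minus strand), the entry enzyme, had 239, 250.2 and 210.5 CPM in NR LT-HSCs, against 428, 453 and 438 CPM in control LT-HSCs. In ST-HSCs it had 217, 239 and 224 CPM with NR, against 499, 464 and 501 CPM in control culture. NR libraries thus held about as much Shmt2 RNA in either population, and far less than any control library. The log2 change was -0.91 ± 0.07 (adjusted p = 1.71e-05, edgeR) in LT-HSCs and -1.11 ± 0.07 (adjusted p = 1.09e-06) in ST-HSCs.

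Mthfd2 (chr6:83305691-83325908, minus strand), the mitochondrial dehydrogenase and cyclohydrolase, lost most among the 8 genes with substantial counts. It had 58.5, 63.4 and 60.1 CPM in NR LT-HSCs, against 131, 142 and 128 CPM in control LT-HSCs. In ST-HSCs it had 36.3, 58.6 and 53.0 CPM with NR, against 156, 164 and 147 CPM in control culture, with sample 1 the lowest library of all. NR left 45.3% of the control mean in LT-HSCs and 31.7% in ST-HSCs. The log2 change was -1.14 ± 0.13 (adjusted p = 0.000276, edgeR) in LT-HSCs and -1.66 ± 0.13 (adjusted p = 6.87e-06) in ST-HSCs.

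Mthfd1l (chr10:3973118-4167081, plus strand), the mitochondrial synthetase that releases formate, changed less. It had 112, 117 and 98.9 CPM in NR LT-HSCs, against 158, 161 and 139 CPM in control LT-HSCs, and 105, 104 and 93.5 CPM in NR ST-HSCs, against 179, 150.3 and 166 CPM in control ST-HSCs. Its log2 change was -0.48 ± 0.09 (adjusted p = 0.00398, edgeR) in LT-HSCs and -0.72 ± 0.09 (adjusted p = 0.000156) in ST-HSCs, with 71.5% and 60.9% of the control mean left.

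Aldh1l2 (chr10:83487450-83534140, minus strand), the mitochondrial formyl-tetrahydrofolate dehydrogenase, was expressed at a low level in control culture and was close to absent with NR in some libraries. Its counts were 2, 9 and 55 in NR LT-HSCs, against 225, 207 and 203 in control LT-HSCs, and 13, 15 and 48 in NR ST-HSCs, against 277, 318 and 375 in control ST-HSCs. In CPM these were 0.0588, 0.309 and 2.03 with NR, against 6.86, 6.87 and 7.23 in control LT-HSCs, and 0.359, 0.471 and 1.66 with NR, against 9.08, 11.4 and 11.5 in control ST-HSCs. The highest NR value in each population was that of sample 3, the library rich in reads outside annotated genes. The log2 change was -3.17 ± 0.74 (adjusted p = 0.0158, edgeR) in LT-HSCs and -3.71 ± 0.74 (adjusted p = 0.00388) in ST-HSCs. Without the 2 NR libraries of sample 3 the log2 changes were -5.26 and -4.60, and all 9 genes were still called lower in both populations. Without NR LT-HSC sample 2, the Aldh1l2 call in LT-HSCs ended (log2 change -2.77, adjusted p = 0.0651, edgeR). By annotated span, Aldh1l2 shares 1056 bases with D10Wsu102e on the opposite strand. Shmt1 and Shmt2 likewise share 184 and 32 bases with Smcr8 and Ndufa4l2. Reads there cannot be told apart from the counts either.

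**Figure D2:**
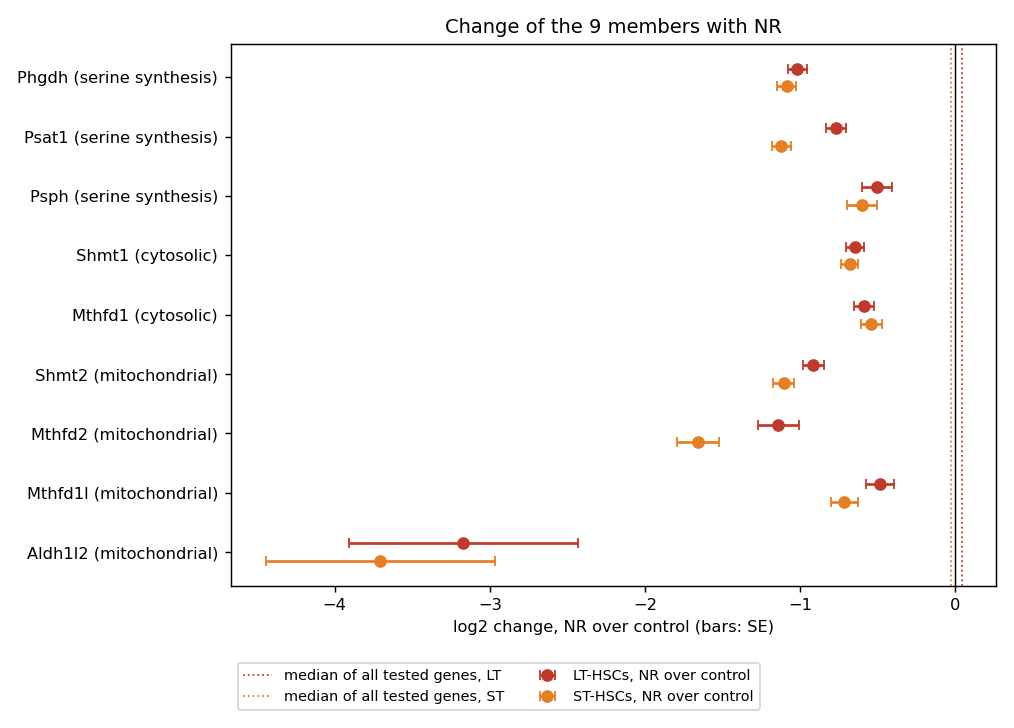
Log2 change of NR over control for the 9 genes in LT-HSCs and ST-HSCs, with bars of 1 SE from the edgeR fit of all 12 libraries, ordered by compartment; dotted lines give the median of all tested genes. All points lie below 0, Aldh1l2 lies lowest with the widest bars, and Shmt1 and Mthfd1 have nearly the same value in both populations.

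To set levels of different genes side by side, CPM were divided by exon length in kilobases. Shmt2 ranked first in every group, with 75.0 ± 6.59 CPM per kb in NR LT-HSCs and 141 ± 4.03 in control LT-HSCs (SD, n = 3), and 72.9 ± 3.52 in NR ST-HSCs and 157 ± 6.72 in control ST-HSCs. Phgdh ranked second in every group, at 57.4 ± 1.82 CPM per kb in NR LT-HSCs and 116 ± 3.54 in control LT-HSCs. In control culture Psat1, Mthfd1 and Shmt1 followed in that order, with ranges that did not touch. In NR culture Psat1 and Mthfd1 were at 48.7 ± 2.06 and 45.6 ± 1.96 CPM per kb in LT-HSCs and at 45.3 ± 3.37 and 48.5 ± 3.94 in ST-HSCs, with overlapping ranges. Mthfd2 stood at 17.4 ± 0.71 CPM per kb in NR LT-HSCs and 38.3 ± 2.16 in control LT-HSCs. Mthfd1l stood at 24.6 ± 2.06 CPM per kb in NR LT-HSCs and 34.4 ± 2.63 in control LT-HSCs. Mthfd2 thus ranked below Mthfd1l in NR LT-HSCs and above it in control LT-HSCs, and the same switch was seen in ST-HSCs. In control culture the ranges of Shmt1 and Mthfd2 overlapped in both populations, as did those of Shmt1 and Mthfd1l in NR LT-HSCs and of Mthfd2 and Psph in NR ST-HSCs. Psph had 13.9 to 21.0 CPM per kb over the 4 group means, and Aldh1l2 came last at 0.107 to 1.42. Lengths are those of the union of annotated exons, so a gene read from a shorter transcript would rank higher than shown.

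The genes allow a comparison of the mitochondrial with the cytosolic enzyme of a reaction inside each library, as the log2 ratio of their counts, which does not depend on library scaling. Shmt2 over Shmt1 was 1.26, 1.36 and 1.11 in NR LT-HSCs, against 1.49, 1.53 and 1.53 in control LT-HSCs, and 0.89, 1.20 and 1.07 in NR ST-HSCs, against 1.49, 1.41 and 1.53 in control ST-HSCs. Every NR library lay below every control library of its cell type, so the mitochondrial enzyme lost more of its RNA than the cytosolic one. Averaged over both cell types the log2 ratio was lower by 0.35 with NR (NR minus control -0.35, of which -0.27 in LT-HSCs and -0.42 in ST-HSCs). The exact permutation test of the NR labels within cell type, two-sided over 400 relabellings, gave p = 0.005, the smallest p it can give, and 0.0075 after adjustment over the 3 ratios tested. How many other pairs of genes separate as fully was not counted, so the p does not set this pair apart from other pairs.

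Mthfd2 over Mthfd1 moved further. The log2 ratio was -1.80, -1.73 and -1.69 in NR LT-HSCs, against -1.22, -1.16 and -1.17 in control LT-HSCs, and -2.70, -1.81 and -1.96 in NR ST-HSCs, against -1.04, -0.90 and -1.10 in control ST-HSCs. No NR library reached a control library in either population. NR minus control was -0.85 over both cell types, with -0.55 in LT-HSCs and -1.14 in ST-HSCs (exact permutation p = 0.005, adjusted 0.0075). The spread among NR ST-HSC libraries (SD 0.48) was the widest of the 4 groups, with sample 1 the lowest.

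For Mthfd1l over Mthfd1 no change with NR was detected. The mean differences had opposite signs in the populations, and whether the populations differ here was not tested. The log2 ratio was -0.87, -0.85 and -0.97 in NR LT-HSCs, against -0.96, -0.98 and -1.05 in control LT-HSCs, and -1.17, -0.98 and -1.14 in NR ST-HSCs, against -0.84, -1.02 and -0.92 in control ST-HSCs. The groups overlapped in both populations, and NR minus control was 0.10 in LT-HSCs, -0.17 in ST-HSCs and -0.04 on average (exact permutation p = 0.57, adjusted 0.57). Between LT-HSC samples of the same number the ratio was higher with NR in 3 of 3, by 0.09, 0.13 and 0.08, and in ST-HSCs the same differences were -0.34, 0.03 and -0.21. The larger loss on the mitochondrial side was thus seen for Shmt2 and Mthfd2 and not detected for Mthfd1l. All 4 mitochondrial genes among those chosen were called lower, but Mthfd2l, a mitochondrial relative of Mthfd2 listed later, was not. Its NR mean was 102.4% of the control mean in LT-HSCs and 113.9% in ST-HSCs. Mtfmt, also mitochondrial, stood at 98.2% and 111.3% and was not called either. Ratios with Mthfd2l or Mtfmt were not tested. Within a single cell type, 3 libraries against 3 cannot give an exact two-sided p below 0.1, which is what Shmt2 over Shmt1 and Mthfd2 over Mthfd1 gave in each.

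**Figure D3:**
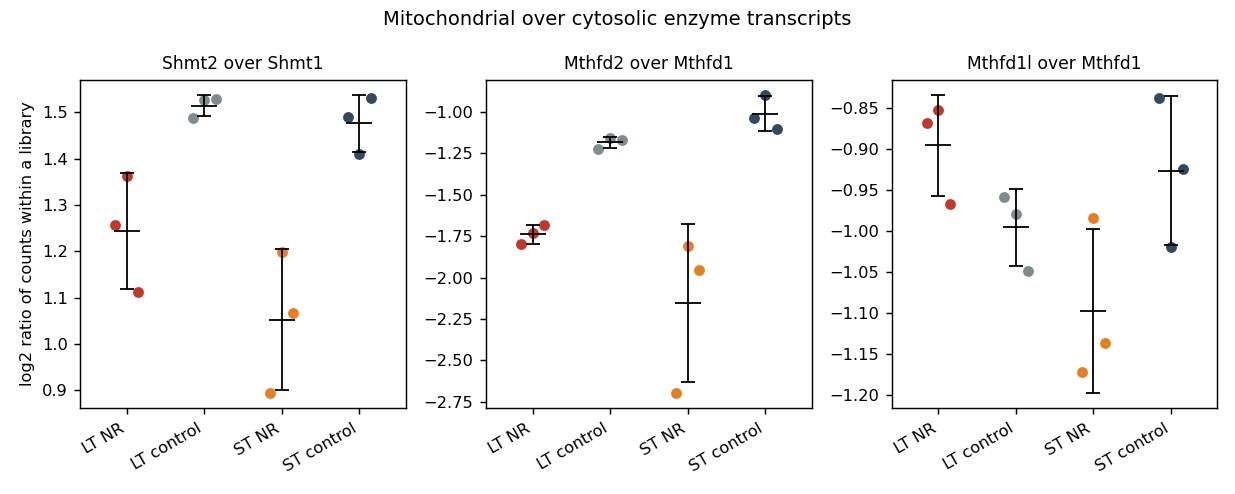
Log2 ratio of mitochondrial to cytosolic transcript counts within each library, for Shmt2 over Shmt1, Mthfd2 over Mthfd1 and Mthfd1l over Mthfd1, each on its own axis, with 1 point per library and black marks for the group mean and SD (n = 3). NR points lie below control points of the same cell type in the first 2 panels and among them in the third.

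Whether NR acted differently in the 2 populations was tested as the difference of its effects, ST-HSCs minus LT-HSCs. None of the 9 genes was called by edgeR, where 0.0101% of all tested genes were called in either direction. Before adjustment 2 of the 9 had a p under 0.05, both with the larger fall in ST-HSCs. The share of all genes with such a p was not counted. Psat1 differed by -0.35 ± 0.09 (SE, adjusted p = 0.365, edgeR) and Mthfd2 by -0.52 ± 0.18 (adjusted p = 0.643, edgeR). DESeq2 called 1 of the 9, Psat1 (-0.33, adjusted p = 0.00765). Over all 19830 genes DESeq2 called 95 higher and 41 lower for this difference. Shmt2 differed by -0.19 ± 0.10 and Mthfd1l by -0.23 ± 0.12, with adjusted p of 0.883 and 0.934 in edgeR. Phgdh, Psph, Shmt1 and Mthfd1 had differences between -0.10 and 0.05 with SE of at most 0.14, and that of Aldh1l2 was -0.54 ± 1.02, too imprecise to place.

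The populations themselves were compared in each culture, LT-HSCs against ST-HSCs; these comparisons share libraries with those of NR. In control culture 1 of the 9 genes was called lower in LT-HSCs, where 1.5% of all tested genes were: Psat1 averaged 353 ± 14.99 CPM in LT-HSCs and 419 ± 9.86 CPM in ST-HSCs (SD, n = 3 each), a log2 difference of -0.25 ± 0.06 (SE, adjusted p = 0.0348, edgeR). This call ended when any of 8 libraries was left out alone (samples 1 and 2 of NR LT-HSCs, 1 and 3 of control LT-HSCs, 3 of NR ST-HSCs and 1, 2 and 3 of control ST-HSCs; adjusted p up to 0.152), and without both NR libraries of sample 3. Shmt1 (154 ± 2.94 CPM in LT-HSCs and 175 ± 2.25 CPM in ST-HSCs), Shmt2, Mthfd2 and Aldh1l2 also lay lower in every control LT-HSC library than in any control ST-HSC library, which 12.4% of tested genes did, but missed the threshold in edgeR with adjusted p of 0.0892, 0.309, 0.525 and 0.793. Log2 differences of the other 4 genes ran from -0.12 to -0.00. In NR culture 0 of the 9 were called by edgeR, where 6.07% of all tested genes were called in either direction. There Shmt1 differed by -0.15 ± 0.06 (adjusted p = 0.164, edgeR) and Mthfd2 by 0.30 ± 0.13 (adjusted p = 0.262, edgeR). Only these 2 of the 9 had an unadjusted p below the threshold, and the share of all genes with such a p was not counted. DESeq2 called 1 of the 9 in NR culture, Shmt1 (-0.17, adjusted p = 0.0431). Over all 19830 genes it called 1106 higher and 957 lower there, so this call is not read as a result about the 9.

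Promoter sequence is shown for the members because they fell together and because ATF4 binds, as a dimer with C/EBP proteins, an element written TGATGNAA. RefSeq windows on GRCm38.p6, from 250 bases before to 30 after the annotated start, matched 8 of the 9 genes (Psat1 with 2 windows); Aldh1l2 had none. TGATGNAA was searched on both strands and was found in 0 of these 8 genes, and in 3.81% of all 32851 windows. CACGTG, the E-box that MYC binds, was found in 0 of the 8, and in 6.79% of windows. CCAAT was found in 6 of the 8 (Phgdh, Psat1, Psph, Shmt1, Mthfd1 and Mthfd2), and in 36.1% of windows. GGGCGG, the GC box, was found in 5 of the 8 (Psat1, Psph, Shmt1, Mthfd1 and Mthfd1l), and in 34.7% of windows. None of the matches of these 4 motifs overlapped one of another motif. A match is a description of letters, and no match covers only this window. The Psat1 and Mthfd2 windows lie inside the gene spans given above, which come from another annotation and begin at 15947337 and 83325908 on the minus strand. Sequence at those starts was not searched. The 4 members with the strongest fall among those with a window follow, 5′ to 3′ on the gene's strand, with CCAAT or its complement ATTGG in capitals (GGGCGG occurs in none of these windows); Shmt2 holds none of the 4 motifs.
Phgdh (chr3:98339940-98340219, minus strand): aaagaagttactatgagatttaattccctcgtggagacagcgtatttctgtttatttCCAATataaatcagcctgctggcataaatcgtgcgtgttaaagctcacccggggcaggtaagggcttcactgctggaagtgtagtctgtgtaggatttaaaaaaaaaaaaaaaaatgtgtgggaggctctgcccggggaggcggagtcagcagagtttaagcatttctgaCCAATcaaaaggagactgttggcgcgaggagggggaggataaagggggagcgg
Psat1 (chr19:15925030-15925309, minus strand, the first of its 2 windows): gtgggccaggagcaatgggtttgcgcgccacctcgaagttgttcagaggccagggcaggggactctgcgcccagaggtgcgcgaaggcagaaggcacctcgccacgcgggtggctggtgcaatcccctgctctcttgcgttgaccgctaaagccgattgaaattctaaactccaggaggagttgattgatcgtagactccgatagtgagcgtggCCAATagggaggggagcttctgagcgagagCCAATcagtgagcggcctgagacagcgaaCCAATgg
Mthfd2 (chr6:83317575-83317854, minus strand): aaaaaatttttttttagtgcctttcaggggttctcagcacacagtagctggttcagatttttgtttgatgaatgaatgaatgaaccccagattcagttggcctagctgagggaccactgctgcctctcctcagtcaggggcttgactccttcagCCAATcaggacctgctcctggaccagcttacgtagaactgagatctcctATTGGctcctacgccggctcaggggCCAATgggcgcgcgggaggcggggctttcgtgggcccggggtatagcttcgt
Shmt2 (chr10:127522415-127522694, minus strand): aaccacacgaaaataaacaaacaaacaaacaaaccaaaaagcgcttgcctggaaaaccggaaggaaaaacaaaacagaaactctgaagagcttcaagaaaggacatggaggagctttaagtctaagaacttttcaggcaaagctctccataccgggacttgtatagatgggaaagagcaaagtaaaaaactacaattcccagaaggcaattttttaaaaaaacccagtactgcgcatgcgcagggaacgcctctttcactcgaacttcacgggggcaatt

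Counting the start as base 1 and the base before it as -1, Phgdh carries CCAAT from -193 and -23, Psat1 from -36, -6 and 24, and Mthfd2 from -96 and -22 and as ATTGG from -47. Of the other genes of the pathway described next, TGATGNAA was found in the windows of Slc1a4, a transporter of serine and alanine, and Trib3. Slc1a4 was alone among 8 serine and glycine transporters with a window, and Trib3 alone among 5 regulators with one. The other lists held no match. TGATGNAA occurs in 3.81% of all windows, so these matches are not read as a result. The Slc1a4 window is shown because it holds the element and this gene fell with the members. Its element lies on the opposite strand, as TTGCATCA in capitals, from -4. Its other motifs are left in lower case.
Slc1a4 (chr11:20332684-20332963, minus strand): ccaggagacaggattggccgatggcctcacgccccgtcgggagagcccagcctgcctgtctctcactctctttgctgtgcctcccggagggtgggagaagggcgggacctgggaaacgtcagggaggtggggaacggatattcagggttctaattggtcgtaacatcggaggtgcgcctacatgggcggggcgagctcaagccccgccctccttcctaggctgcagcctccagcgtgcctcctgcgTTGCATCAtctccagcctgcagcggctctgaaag

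Around the 9 genes, 48 further genes of the pathway were listed, also with earlier results of these data known. Of these, 45 were tested (Ftcd, Folr2 and Sds were not). They were counted by direction with NR and read against the shares of all genes called lower, 7.58% in LT-HSCs and 11.1% in ST-HSCs. Of the 10 transporters of serine and glycine, 5 were called lower in LT-HSCs and 7 in ST-HSCs, and 0 higher. Of the 5, only 3 kept their call in 15 of 21 other settings, which included each library left out alone, and of the 7, between 5 and 7 did. Sfxn1, which imports serine into mitochondria, had 196, 189 and 169.5 CPM in NR LT-HSCs, against 278, 303 and 269 CPM in control LT-HSCs, and 204, 205 and 196 CPM in NR ST-HSCs, against 319, 301 and 305 CPM in control ST-HSCs. It lost about as much in both, with log2 changes of -0.62 ± 0.07 (adjusted p = 0.000176, edgeR) and -0.61 ± 0.07 (adjusted p = 5.81e-05). Slc1a4 had 19.6, 20.8 and 19.4 CPM in NR LT-HSCs, against 49.4, 56.7 and 53.6 CPM in control LT-HSCs, and 2.98, 11.8 and 11.8 CPM in NR ST-HSCs, against 57.7, 51.2 and 56.0 CPM in control ST-HSCs. Its log2 change was -1.42 ± 0.31 (adjusted p = 0.0118, edgeR) in LT-HSCs and -2.64 ± 0.33 (adjusted p = 0.000181) in ST-HSCs. Slc1a5, a glutamine and neutral amino acid transporter, changed by -0.36 ± 0.06 (adjusted p = 0.00232, edgeR) and -0.40 ± 0.06 (adjusted p = 0.000546), and Sfxn2, a mitochondrial relative of Sfxn1, by -0.35 ± 0.10 (adjusted p = 0.0491, edgeR) and -0.54 ± 0.10 (adjusted p = 0.00275). Over the 21 other settings the calls of Sfxn1, Slc1a4 and Slc1a5 held in both populations. The LT-HSC calls of Sfxn2 and of Slc38a1, a glutamine transporter (-0.25 ± 0.07, adjusted p = 0.0463, edgeR), each ended in 17 settings, and the ST-HSC call of its relative Slc38a2 (-0.20 ± 0.06, adjusted p = 0.0341, edgeR) in 14.

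The rest of the folate cycle moved little. Of 9 tested further enzymes, 0 were called in LT-HSCs by edgeR in either direction, and 2 were called lower in ST-HSCs. In LT-HSCs 3 had an unadjusted p under 0.05, all lower, and the share of all genes with such a p was not counted. Tyms, which makes thymidylate from a folate carbon unit, changed by -0.18 ± 0.08 (adjusted p = 0.214, edgeR) in LT-HSCs and by -0.33 ± 0.08 (adjusted p = 0.0142) in ST-HSCs. Fpgs, which adds the glutamate tail that holds folate in cells, changed by -0.31 ± 0.10 in ST-HSCs (adjusted p = 0.0445, edgeR). Aldh1l1, the cytosolic counterpart of Aldh1l2, differed from it: its log2 change was -0.23 ± 0.12 (adjusted p = 0.278, edgeR) in LT-HSCs and -0.25 ± 0.12 (adjusted p = 0.195) in ST-HSCs, and neither was called. The difference between the changes of these 2 genes was not tested. Of 4 tested folate transporters, 1 was called lower in LT-HSCs and 2 in ST-HSCs. Slc19a1, the reduced folate carrier, changed by -0.32 ± 0.09 (adjusted p = 0.0362, edgeR) and -0.33 ± 0.09 (adjusted p = 0.0217), and Slc25a32, which carries folate into mitochondria, by -0.30 ± 0.09 in ST-HSCs (adjusted p = 0.0442, edgeR). Slc46a1 (-0.34 ± 0.26 and -0.44 ± 0.26) and the barely detected Folr1 (1.24 ± 2.06 and 1.12 ± 2.07) were not called. All these folate calls ended without the 2 NR libraries of sample 3. Over the 21 other settings, Slc19a1 lost its call in 12 in LT-HSCs and in 8 in ST-HSCs, Tyms in 6, Slc25a32 in 14 and Fpgs in 16.

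In the glycine cleavage system, which breaks glycine down in mitochondria, Gcsh alone of 4 was called: -0.35 ± 0.08 (adjusted p = 0.0171, edgeR) in LT-HSCs and -0.31 ± 0.08 (adjusted p = 0.0191) in ST-HSCs, both lost without the 2 NR libraries of sample 3 and, of the 21 other settings, in 6 in LT-HSCs and 7 in ST-HSCs. Gldc, the decarboxylase of that system, was at most 1.26 CPM in any library, and neither it (2.29 ± 1.17 in LT-HSCs and -0.45 ± 1.12 in ST-HSCs), Amt (0.79 ± 0.54 and 1.02 ± 0.54) nor Dld (-0.21 ± 0.07 and -0.11 ± 0.07) was called. Among 10 tested genes that use serine or glycine, Sdsl was called lower and Srr, the serine racemase, higher in both populations. Sdsl, a relative of serine dehydratase, had 48.8, 53.4 and 41.3 CPM in NR LT-HSCs, against 63.6, 73.8 and 67.6 CPM in control LT-HSCs (-0.51 ± 0.10, adjusted p = 0.00481, edgeR), and changed by -0.83 ± 0.10 in ST-HSCs (adjusted p = 0.000105, edgeR). Srr had 14.4, 18.2 and 15.1 CPM in NR LT-HSCs, against 9.24, 12.3 and 10.1 CPM in control LT-HSCs (0.60 ± 0.14, adjusted p = 0.0181, edgeR), and changed by 0.58 ± 0.14 in ST-HSCs (adjusted p = 0.0138, edgeR). The Srr call ended without NR LT-HSC sample 2 or control LT-HSC samples 1 or 3 in LT-HSCs (adjusted p up to 0.0803), and without control ST-HSC sample 3 in ST-HSCs (adjusted p = 0.0683, edgeR). Cth, which makes cysteine from cystathionine, had values of -1.94 ± 0.70 in LT-HSCs and -1.91 ± 0.69 in ST-HSCs that missed the threshold (adjusted p = 0.108 and 0.0804, edgeR), and Gatm, of creatine synthesis, had -0.21 ± 0.09 and -0.22 ± 0.09, also not called. Both enzymes that use formyl-folate in purine synthesis were called lower in both populations. Gart had 218, 224 and 201 CPM in NR LT-HSCs, against 296, 288 and 289 CPM in control LT-HSCs (-0.44 ± 0.06, adjusted p = 0.000746, edgeR), and changed by -0.46 ± 0.06 in ST-HSCs (adjusted p = 0.0002, edgeR). Atic changed by -0.31 ± 0.08 (adjusted p = 0.0352, edgeR) and -0.30 ± 0.08 (adjusted p = 0.0288), calls that ended without the 2 NR libraries of sample 3 and, of the 21 other settings, in 10 and 9.

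**Figure D4:**
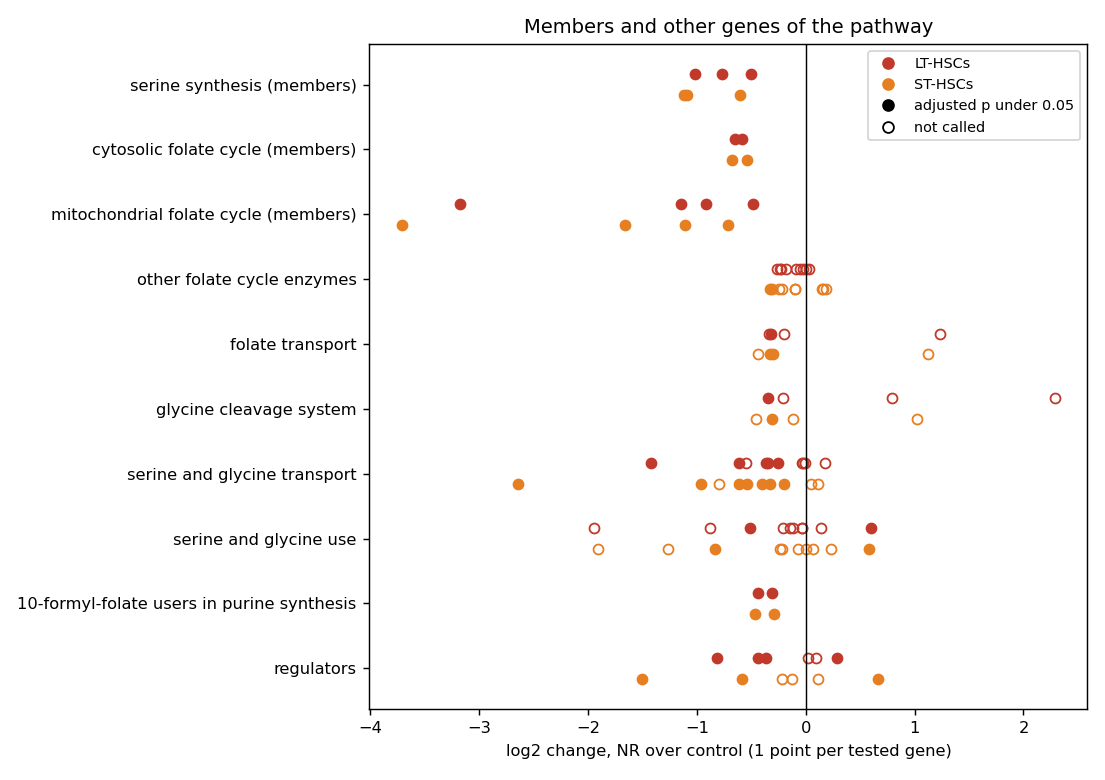
Log2 change of NR over control for every tested gene of the 9 members and the 7 further lists, in LT-HSCs and ST-HSCs, with genes called by edgeR filled and the others open. The members and the purine enzymes lie below 0 throughout, while the lists of further folate enzymes and of serine and glycine use centre close to 0.

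Of 6 regulators, 3 were called lower and 1 higher in LT-HSCs, and 2 lower and 1 higher in ST-HSCs. Atf4 had 152, 163 and 139 CPM in NR LT-HSCs, against 194, 202 and 189 CPM in control LT-HSCs, and 143, 157 and 136 CPM in NR ST-HSCs, against 241, 207 and 207 CPM in control ST-HSCs. Its groups did not overlap, with log2 changes of -0.37 ± 0.08 (adjusted p = 0.0118, edgeR; at most 0.0583 where the call ended, without NR LT-HSC sample 1, without control LT-HSC sample 2 and without the 2 NR libraries of sample 3) and -0.59 ± 0.08 (adjusted p = 0.00036, edgeR). ATF4 is controlled largely by translation, which these RNA data do not measure. Trib3, a known ATF4 target, had 11.2, 13.3 and 11.5 CPM in NR LT-HSCs, against 22.5, 20.8 and 19.7 CPM in control LT-HSCs, and 7.12, 5.56 and 6.18 CPM in NR ST-HSCs, against 17.9, 17.1 and 18.5 CPM in control ST-HSCs (log2 changes of -0.81 ± 0.11, adjusted p = 0.000902, and -1.50 ± 0.12, adjusted p = 5.3e-06, edgeR). Myc was called lower in LT-HSCs (-0.44 ± 0.07, adjusted p = 0.00292, edgeR) and not in ST-HSCs (-0.22 ± 0.07, adjusted p = 0.0603, edgeR). Nfe2l2, which encodes NRF2, changed the other way, by 0.29 ± 0.08 (adjusted p = 0.0497, edgeR) and 0.66 ± 0.09 (adjusted p = 0.00021, edgeR); its LT-HSC call ended in 11 of the 21 other settings.

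Over the 12 libraries the 9 genes varied together: Pearson r of log2 CPM between any 2 of them ran from 0.76 (Mthfd1l and Aldh1l2) to 0.99 (Psat1 and Shmt2). These values describe 12 libraries in which the NR and control groups differ, and the points share library, depth and group. Among 9989 genes with at least 5 CPM on average, those most like Phgdh were Set (r = 0.990), Shmt2 (0.990), Fabp5 (0.988), Pdap1 (0.986) and Hspa9 (0.985). Those most like Mthfd2 were Slc7a5 (r = 0.991), an amino acid exchanger, the transfer RNA synthetase gene Aars (0.989), Slc7a1 (0.988), an importer of basic amino acids, Asns (0.987), asparagine synthetase, and the transfer RNA synthetase gene Lars (0.986). Those most like the cytosolic Shmt1 were Ccdc40 (r = 0.993), Igfbp4 (0.986), Prmt3 (0.984), Marcksl1 (0.982) and Ncl (0.982). The 3 lists of 5 share no gene, but the values are too close together for that to mark separate groups. Phgdh and Shmt1 themselves correlated at 0.978, against 0.982 for the fifth gene of the Shmt1 list.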

How the data were processed

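Total RNA was amplified with SMART-seq v4 and made into libraries with Nextera XT, per the labels' protocols. The authors deposited 1 raw count per Ensembl gene and library; per the submitters' processing notes the tools were FastQC 0.11.2, STAR 2.5.0b and HTSeq 0.6.1. Genome build, annotation release and strand setting: not given in the sources used here. Of the sample columns, 0 were not used. Reads in no gene (8.69% to 28.5%) and ambiguous reads (3.30% to 4.38%) were kept out of library sizes. Symbols and coordinates came from GENCODE M21 (GRCm38), promoter sequence from RefSeq. Replicates of a group were not duplicates (chi-square per degree of freedom 6.31 to 37.6).

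Counts were tested with edgeR 4.0.16 (quasi-likelihood, two-sided, TMM factors, filterByExpr with minimum count 10 and total 15) on 12 samples and 4 group means, with 8 residual degrees of freedom. CPM use TMM-scaled library sizes. Ratios added 0.5 to both counts. Other settings were other factors, DESeq2 1.42.0, other filters, a fit of only the groups compared, a replicate block, libraries left out and the unassigned share as a covariate. No label says that sample numbers pair samples. Deviations from group means correlated over 0.1 for every number between NR and control LT-HSCs (0.491, 0.240 and 0.503) and between NR LT-HSCs and NR ST-HSCs (0.628, 0.332 and 0.601), but not between NR and control ST-HSCs (0.208, -0.0078 and 0.238) or the control groups (-0.0096, 0.031 and 0.113). The code was tested on simulated data. The members and lists were chosen with earlier results of these data known; 3 of the 4 promoter motifs (the E-box, the GC box and CCAAT) were added after the tests were planned. All members are named, and of other lists up to 4 genes with the smallest p in either NR comparison, of which 1 is not reported here. The genes most alike are the 5 with the highest r among genes of at least 5 CPM, without predicted genes and pseudogenes.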

Additional observations from a re-analysis of the deposited data

How the results depend on the processing

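The count of 9 members lower with NR held in LT-HSCs and ST-HSCs under every setting run, except the filter at a mean of 5 CPM, which removed Aldh1l2 (8 in each), and leaving out single libraries in LT-HSCs (8 to 9); in ST-HSCs leaving out single libraries gave 9. Of 188 single member values in LT-HSCs, 187 kept direction and call and 1 lost its call, and in ST-HSCs 188 of 188 kept both. Of 315 and 399 values of other called genes, 79 and 78 lost their call. The 3 ratios kept direction and side of the threshold under all settings, with NR minus control of -0.38 to -0.31, -0.93 to -0.71 and -0.06 to -0.01 without single libraries.

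For the difference of NR effects DESeq2 called 1 member, against 0 in edgeR. Between LT-HSCs and ST-HSCs of control culture, 1 member was called in the fit reported; 2 were called with DESeq2, with the filter at 5 CPM, with only the groups compared and with the covariate, 0 without a filter and without the 2 NR libraries of sample 3, and 0 to 1 without single libraries. Over all genes in control culture, DESeq2 called 1093 higher and 537 lower, and the filter at 5 CPM gave 832 higher and 505 lower of 10475. In NR culture DESeq2 called 1 member, against 0 in edgeR. Signs turned only where values were near 0 or, for Aldh1l2, imprecise. The difference of NR effects turned for Shmt1 (0.03) and Aldh1l2 (0.66) without the 2 NR libraries of sample 3, for Aldh1l2 with the covariate (0.32), and without single libraries for Phgdh (-0.11 to 0.00078), Shmt1 (-0.084 to 0.041), Mthfd1 (-0.023 to 0.14) and Aldh1l2 (-1.44 to 1.57). Psph in control culture, LT-HSCs against ST-HSCs, became 0.0075 with relative log expression factors and with DESeq2, 0.0054 with upper-quartile factors, 0.031 without a filter, 0.0056 with the filter at 5 CPM, 0.032 with only the groups compared, 0.031 without the 2 NR libraries of sample 3, and -0.040 to 0.031 without single libraries. In NR culture Shmt2 ranged from -0.0051 to 0.11 and Aldh1l2 from -2.17 to 0.86 without single libraries. The causes were not tested.

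With the number as a replicate block, 9 and 9 members were called lower with NR, 0 for the difference of effects, and 1 and 0 between populations in control and NR culture, as without it, and no called gene of the other lists lost its call with NR. Aldh1l2, with 2 to 55 counts per NR library, is where depth limits precision most. Groups of 3 libraries set the precision of all tests.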
